A study of Mus musculus with 44 samples.

Results

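The family of miR-192, miR-194 and miR-215 consists of microRNAs (miRNAs, short RNAs that guide silencing of messenger RNAs) made from 4 mouse hairpins. It was taken by name as the 7 mature miRNAs mmu-miR-194-5p, mmu-miR-194-1-3p, mmu-miR-194-2-3p, mmu-miR-192-5p, mmu-miR-192-3p, mmu-miR-215-5p and mmu-miR-215-3p (below without the prefix for mouse), out of 1978 mature miRNAs listed. All 7 had at least 1 count, and 3 of them passed the filter on low counts over all libraries, which kept 594 of the 1978. Small RNA was counted in the hypothalamus, the brain region that controls feeding and energy use, in 44 libraries from C57Bl/6J mice. AM132 mice (16 libraries) had been fed a high fat diet for 11 weeks until obese and were then injected intravenously with a locked nucleic acid oligonucleotide of 16 bases that is complementary to mature miR-132, at 3.3 mg/kg on 3 days in a row. AM608 mice (16 libraries) had the same diet and schedule with a 15-base oligonucleotide against the primate miRNA miR-608, for which no matching mouse sequence is predicted. Tissue of both groups was collected 7 days after treatment. RCD mice (12 libraries) were age-matched and lean on regular chow, and the descriptions do not say that they were injected, so that diet and injection cannot be told apart in comparisons with RCD. The labels place 4 AM132 and 4 AM608 libraries in batch 1 and again in batch 3. Batch 2 comprised 8 AM132 and 8 AM608 libraries together with 4 of RCD, and the remaining 8 RCD libraries formed batch 4. The study's title names miR-194-5p together with lysine tRNA fragments as regulators of fat storage in liver, and the question here is what the family did in hypothalamus.

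miR-192 and miR-194 are best known from liver, kidney and gut epithelium, where hepatocyte nuclear factors drive their genes. miR-215 shares the seed of miR-192, the stretch that pairs with targets, and miR-192, miR-194 and miR-215 have been described in human cells as induced by p53.

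The sequences below, from RefSeq (GRCm38.p6), show which members can be told apart in sequencing and which share targets by seed. They are given 5′ to 3′, with the seed (bases 2 to 8) in capitals.
miR-194-5p: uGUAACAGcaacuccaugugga
miR-194-1-3p: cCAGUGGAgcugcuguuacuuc
miR-194-2-3p: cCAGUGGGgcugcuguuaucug
miR-192-5p: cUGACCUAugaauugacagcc
miR-215-5p: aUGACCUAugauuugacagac
miR-192-3p: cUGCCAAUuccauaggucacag
miR-215-3p: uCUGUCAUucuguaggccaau
No other mature miRNA of the RefSeq table carries the seed GUAACAG of miR-194-5p. The seed UGACCUA is carried by miR-192-5p and miR-215-5p alone, which match at 18 of 21 positions and differ by C1A, A12U and C20A (miR-192-5p base first, position counted from 1 at the 5′ end). How the authors' counting assigned reads that fit both is not given in the sources used here, so the split between this pair is uncertain. The miR-194 3p arms match at 18 of 22 positions and differ by A8G, C19U, U20C and C22G, of which A8G lies in the seed.

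miR-194-5p is made identically by 2 hairpins, and its reads cannot be assigned to either. The hairpins are shown with miR-194-5p in capitals, because only their 3p arms tell the loci apart.
Mir194-1: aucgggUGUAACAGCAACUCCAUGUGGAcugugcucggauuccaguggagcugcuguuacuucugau
Mir194-2: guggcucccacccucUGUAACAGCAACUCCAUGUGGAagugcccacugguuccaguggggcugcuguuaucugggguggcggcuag
Mir194-1 (chr1:185313319-185313385, plus strand) and Mir215 (chr1:185313581-185313692, plus strand) lie 195 bases apart within an intron of Iars2, a mitochondrial isoleucyl-tRNA synthetase gene on the opposite strand. In the GENCODE annotation of the same build they also fall in 2010103J01Rik, a transcript antisense to Iars2, Mir194-1 in its intron and Mir215 in an exon. Mir194-2 (chr19:6264643-6264728, plus strand) and Mir192 (chr19:6264844-6264932, plus strand) lie 115 bases apart between genes. The nearest annotated gene before Mir194-2 is Atg2a, an autophagy gene, at 2307 bases, and the nearest after Mir192 is Gm14963 at 3862 bases. Each locus therefore pairs 1 copy of miR-194 with 1 miRNA of the UGACCUA seed.

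Across the 44 libraries miR-194-5p and miR-192-5p held nearly all counts of the family. miR-194-5p had 57861 counts (60.1% of the family) and miR-192-5p had 37613 (39.04%), while miR-215-5p had 604 (0.627%). As counts scaled to the miRNA total of a library (counts per 1000000, CPM), miR-194-5p averaged 317 ± 69.9, miR-192-5p 207 ± 43.4 and miR-215-5p 3.34 ± 1.31 (SD, n = 44 each). By mean CPM they ranked 154, 183 and 530 of the 1978 miRNAs. Each was counted in 44 of 44 libraries, with 675 to 3307 counts for miR-194-5p, 445 to 1511 for miR-192-5p and 3 to 35 for miR-215-5p, so that counting error weighs mainly on miR-215-5p. A count stands for a whole mature miRNA, and recovery during library making was not calibrated between sequences.

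The 3p arms, normally the discarded strand of these hairpins, were rare. miR-194-2-3p had 245 counts in 43 libraries, at most 14 in one, and the other 3p arms had 9 (miR-194-1-3p, in 8 libraries), 7 (miR-215-3p, in 7 libraries) and 2 counts (miR-192-3p, in 2 libraries). Both miR-194 3p arms together made up 254 of 58115 miR-194 counts, or 0.437% (exact Clopper-Pearson 95% interval 0.385 to 0.494%). For miR-192 the 3p arm made up 2 of 37615 counts, or 0.00532% (exact interval 0.000644 to 0.0192%), and for miR-215 7 of 611, or 1.15% (exact interval 0.462 to 2.35%). Of the 254 counts on miR-194 3p arms, 245 came from the chromosome 19 hairpin, which is 96.5% (exact interval 93.4 to 98.4%). Likewise 1.58% of the 38217 counts on miR-192-5p and miR-215-5p were miR-215-5p, from chromosome 1 (exact interval 1.46 to 1.71%). These reads carry no molecular identifiers, and the intervals cover counting error only. Neither share measures how much miR-194-5p each locus gave.

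Library totals ran from 3020192 to 5997234 miRNA counts, and the 8 brain marker miRNAs examined were detected in every group. AM132 libraries had 62.3 to 1219 CPM of miR-132-3p, the targeted miRNA, and AM608 libraries 639 to 1243 CPM. The lowest value was that of AM132 6, and the other AM132 libraries of batch 2 had 352 to 628 CPM. miR-132-3p fell short of the adjusted threshold in AM132 (log2 fold change -0.46 ± 0.16 (SE), edgeR adjusted p = 0.593). Without AM132 5, AM132 6 and AM608 5, described next, it was -0.33 ± 0.08 (edgeR adjusted p = 0.0614). In batch 2 all 8 AM132 libraries lay below all 8 AM608 libraries (median 459 against 766 CPM), and in batch 1 and batch 3 the groups overlapped. Within batch 2 some libraries stood apart by miRNAs of other tissues. The 7 epithelial markers summed to 19753 CPM in AM132 6, 1105 CPM in AM132 5 and 7218 CPM in AM608 5. The other AM608 libraries of batch 2 had 167 to 765 CPM, so that AM132 5 stood apart least. In AM132 6, 14 miRNAs linked to hepatocyte nuclear factors or endodermal tissue summed to 156498 CPM, and 3 muscle markers to 3060.5 CPM. The other AM132 libraries of batch 2 had 13807 to 20736 CPM and 315 to 564 CPM of these. Most of the first sum in AM132 6 was miR-148a-3p, at 135974 CPM, and other miRNAs of that list were low there. miR-122, whose 5p arm is on the list, had 40.4 CPM (both arms summed), against 46.2 to 59.8 CPM in the others. miR-216a-5p, miR-216b-5p and miR-217-5p, also on the list, summed to 216 CPM, against 295 to 431 CPM. AM132 6 also had the lowest summed brain markers, 183273 CPM against 249854 to 280338 CPM in the other AM132 libraries of batch 2. Fewer cells of a type and less RNA per cell cannot be told apart in such bulk tissue, and nothing in the descriptions says whether animals were pooled, so that p-values measure the spread between libraries.

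To ask whether the anti-miR-132 oligonucleotide changed the family, AM132 was compared with AM608 over batches 1 to 3. None of the 3 tested members passed the adjusted test of its level. The counts were tested with edgeR's quasi-likelihood test with batch as a term, TMM scaling and Benjamini-Hochberg adjustment over 559 miRNAs, of which 2 (0.358%) passed 0.05, 1 higher and 1 lower in AM132 (0.179% each). At an unadjusted p under 0.05 there were 23 miRNAs, and DESeq2 also called 2. A log2 fold change below is AM132 minus AM608 and is given with its SE.

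miR-194-5p, the member named in the study's title, had 228.9, 278.4, 301.7 and 269.4 CPM in AM132 libraries of batch 1, against 234.6, 265.7, 235.5 and 271.7 CPM in AM608 libraries. In batch 2 the AM132 libraries ran from 277 to 381 CPM (median 330), against 302 to 442 CPM (median 361) in AM608 libraries. In batch 3 it had 234.9, 253.5, 246.2 and 223.1 CPM in AM132 libraries, against 255.7, 220.9, 272.6 and 291.3 CPM in AM608 libraries. The groups overlapped in all 3 batches. The log2 fold change was -0.04 ± 0.05 (edgeR adjusted p = 0.983), and 11 of 16 AM132 libraries were below the AM608 mean of their batch. Within batches 1, 2 and 3 it was 0.11, -0.05 and -0.13, so its sign was not the same in each.

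miR-192-5p had 159.6, 169.2, 200.1 and 184.9 CPM in AM132 libraries of batch 1, against 153.0, 171.9, 169.3 and 180.6 CPM in AM608 libraries. In batch 2 the AM132 libraries ran from 222 to 342 CPM (median 253), against 207 to 275 CPM (median 233) in AM608 libraries. In batch 3 it had 165.6, 179.1, 165.5 and 147.1 CPM in AM132 libraries, against 177.0, 155.6, 161.7 and 153.9 CPM in AM608 libraries. These groups overlapped in each batch as well, and AM132 6 was the highest library. The log2 fold change was 0.14 ± 0.06 (edgeR p = 0.0194, adjusted p = 0.820), with 12 of 16 AM132 libraries above the AM608 mean of their batch. It was 0.09, 0.24 and 0.01 within batches 1, 2 and 3, and 0.09 ± 0.04 without AM132 5, AM132 6 and AM608 5 (edgeR adjusted p = 0.933).

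miR-215-5p, the rare member with the seed of miR-192-5p, averaged 2.97 ± 1.11 CPM in AM132 and 3.36 ± 1.23 CPM in AM608 libraries (SD, n = 16 each). Its counts per library ran from 6 to 20 in AM132 and from 3 to 19 in AM608. The log2 fold change was -0.15 ± 0.13 (edgeR adjusted p = 0.955). With no filter on low counts miR-194-2-3p could be tested too: it had 96 counts in AM132 and 72 in AM608 libraries, a log2 fold change of 0.37 ± 0.19 (edgeR adjusted p = 0.802). For the other 3p arms AM132 and AM608 libraries held 1 and 5 counts of miR-194-1-3p, 1 and 1 of miR-192-3p, and 2 and 2 of miR-215-3p, too few for a comparison. The difference between AM132 and AM608 was not shown to vary by batch for any tested member (edgeR interaction test, adjusted p = 0.989 for each, 0 of 559 miRNAs or 0% called, 23 at an unadjusted p under 0.05).

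**Figure D1:**
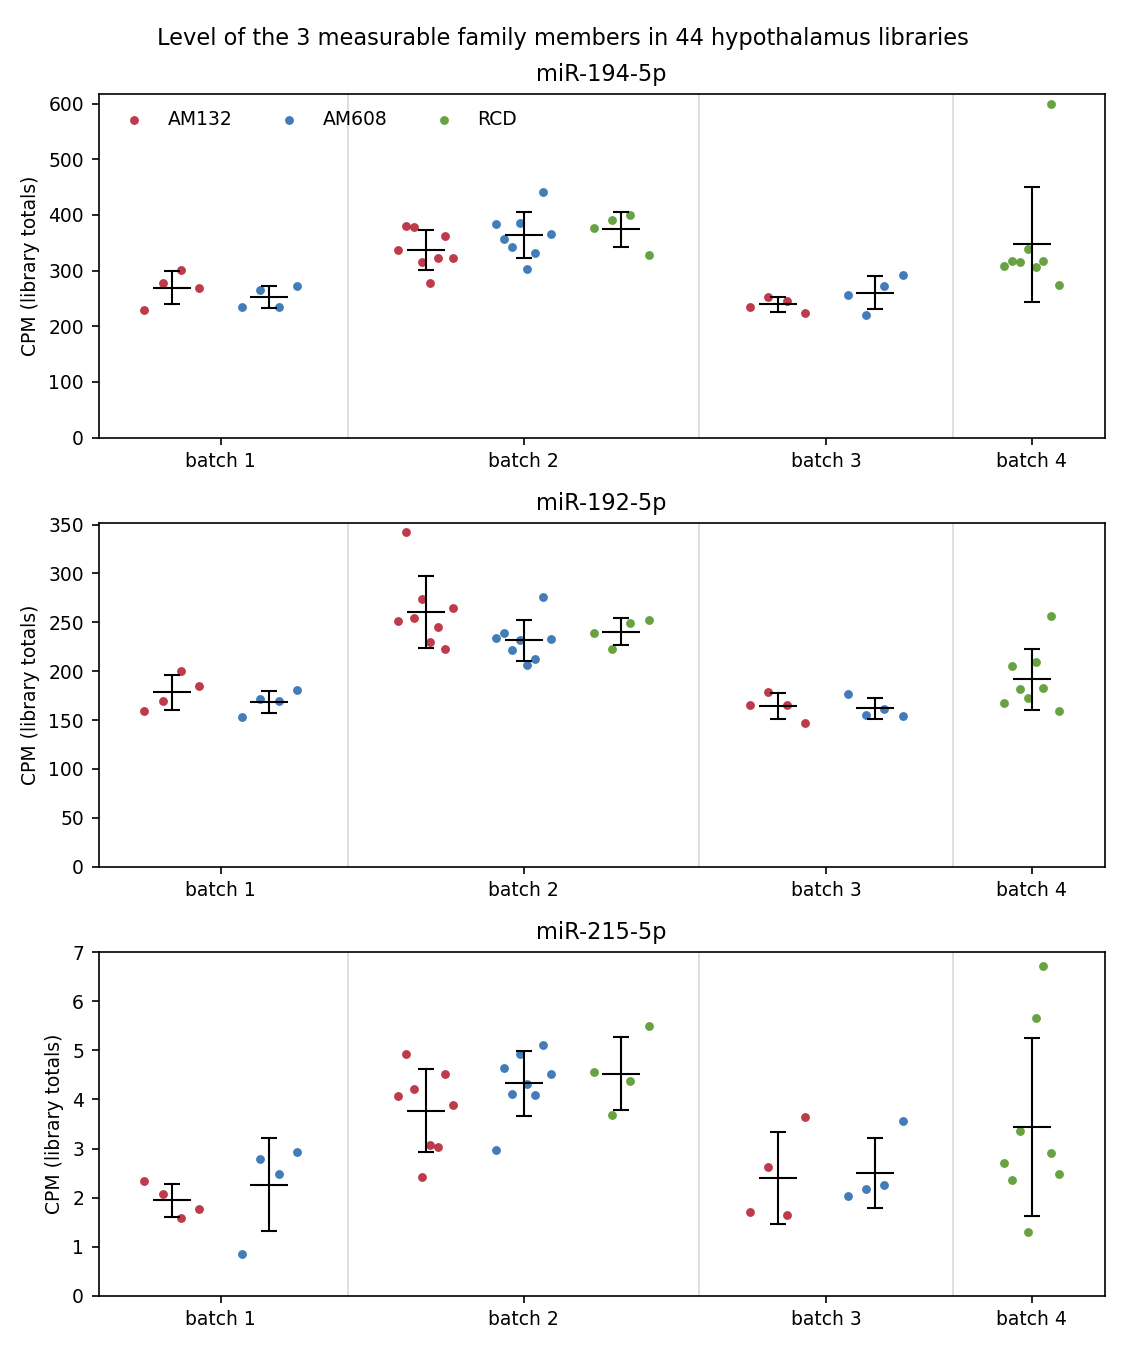
CPM (by library totals) of miR-194-5p, miR-192-5p and miR-215-5p in each of the 44 libraries, by batch and group; points are libraries, and black marks are mean ± SD of a group in a batch. AM132 and AM608 overlap within every batch, and 1 RCD library of batch 4 stands at 599 CPM of miR-194-5p.

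The ratio of 2 members within a library does not depend on scaling, and here a difference between the groups appeared. The ratio of miR-192-5p to miR-194-5p counts was higher in AM132, by 0.16 on the log2 scale or 1.12-fold. Log2 ratios averaged -0.47 ± 0.17 in AM132 and -0.64 ± 0.11 in AM608 libraries (SD, n = 16 each). The 2-sided permutation test within batch gave p = 0.00227, or 0.00681 adjusted over 3 ratios, and 13 of 16 AM132 libraries were above the AM608 mean of their batch. As the members' values were known beforehand, this ratio test is not independent of them. Ratios of other pairs of miRNAs were not tested, so how common a difference of this size is remains unknown.

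Within single batches the difference was largest in batch 2. There the ratio ran from 0.613 to 0.899 (median 0.790) in AM132 libraries and from 0.602 to 0.684 (median 0.638) in AM608 libraries, and 6 of 8 AM132 libraries were above all 8 AM608 libraries. The log2 difference was 0.27 (exact permutation p = 0.00311, and 0.00932 after adjustment for 3 batches). Without AM132 5, AM132 6 and AM608 5 it was 0.23, 4 of 6 AM132 libraries were above all 7 AM608 libraries, and the adjusted test was no longer passed (exact permutation p = 0.0175, adjusted 0.0524). In batch 1 the ratios were 0.697, 0.608, 0.663 and 0.686 in AM132 and 0.652, 0.647, 0.719 and 0.665 in AM608 libraries, a log2 difference of -0.02 (exact permutation p = 0.80). In batch 3 they were 0.705, 0.707, 0.672 and 0.659 in AM132 and 0.692, 0.704, 0.593 and 0.528 in AM608 libraries, a log2 difference of 0.13 (exact permutation p = 0.286). Whether the ratio's difference varies between batches was not tested. Without AM132 5, AM132 6 and AM608 5 the difference over all batches was 0.14 (permutation within batch, adjusted p = 0.0346), and the part of other tissue in it was not tested further.

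**Figure D2:**
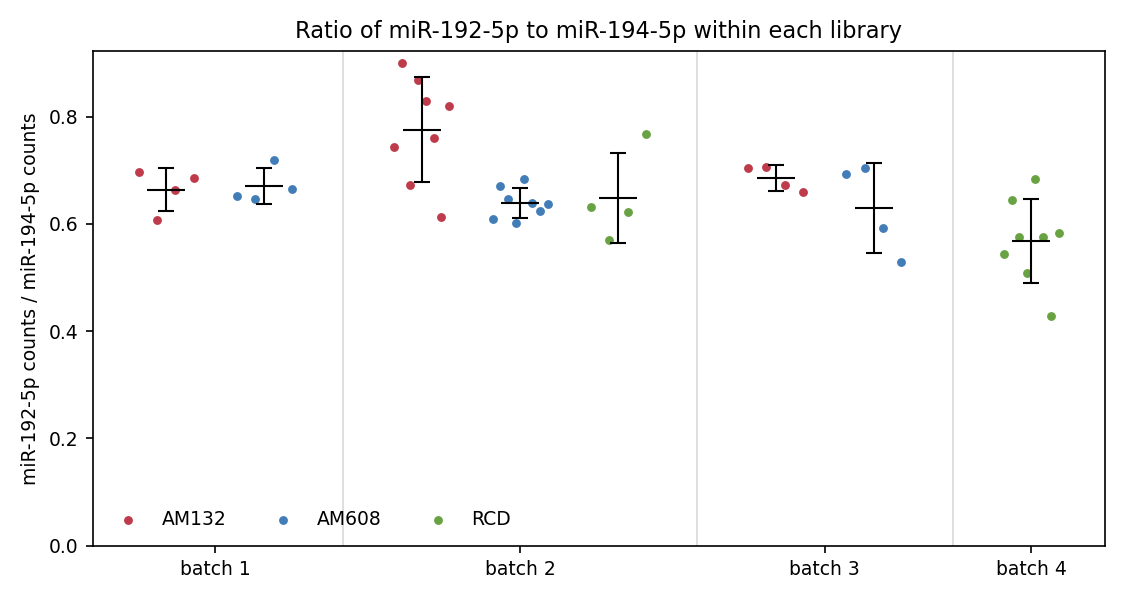
Ratio of miR-192-5p to miR-194-5p counts in each library, by batch and group; points are libraries, and black marks are mean ± SD. In batch 2, 6 of 8 AM132 libraries are above all AM608 libraries, while the groups of batch 1 overlap.

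Ratios with miR-215-5p did not pass. The ratio of miR-215-5p to miR-192-5p was lower in AM132 by a log2 difference of -0.26, with means of -6.24 ± 0.44 in AM132 and -5.98 ± 0.49 in AM608 libraries (SD, n = 16 each; permutation within batch p = 0.0982, adjusted 0.147). It passed when AM608 1 was left out (-0.35, adjusted p = 0.0210) or AM132 16 (-0.33, adjusted p = 0.0429). The member had 3 counts in AM608 1, the fewest of any library, and 11 in AM132 16. The ratio of miR-215-5p to miR-194-5p differed by -0.10 (permutation p = 0.505).

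To ask whether obese mice with the control oligonucleotide differed from lean mice, AM608 was compared with RCD in batch 2, the only batch that holds both. The members' levels overlapped between the groups. In AM608 and RCD libraries miR-194-5p ran from 302 to 442 CPM and from 328 to 400 CPM, with single RCD values of 377.3, 390.1, 400.2 and 328.5 CPM. miR-192-5p ran from 207 to 275 CPM in AM608, against 238.5, 222.4, 249.2 and 251.9 CPM in RCD libraries. miR-215-5p ran from 2.96 to 5.11 CPM in AM608, against 4.55, 3.69, 4.37 and 5.50 CPM in RCD libraries. The log2 fold changes, AM608 minus RCD, were 0.00 ± 0.09, -0.01 ± 0.12 and -0.04 ± 0.17 for these members in that order (edgeR adjusted p = 0.995, 0.992 and 0.984). No member was called, nor was any of 599 miRNAs (0%) by edgeR, with 30 at an unadjusted p under 0.05 and 0 called by DESeq2. Ratios of members differed by -0.01, -0.01 and -0.02 on the log2 scale (exact permutation, adjusted p = 0.964 for each of 3).

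AM132 was compared with the same 4 RCD libraries, so that both contrasts share them. miR-192-5p had a log2 fold change of 0.23 ± 0.12 (edgeR p = 0.0663, adjusted p = 0.491), with 7 of 8 AM132 libraries above the RCD mean. Without AM132 5, AM132 6 and AM608 5 it was 0.12 ± 0.07 (adjusted p = 0.460). miR-194-5p had -0.04 ± 0.09 (edgeR adjusted p = 0.908) and miR-215-5p -0.18 ± 0.17 (edgeR adjusted p = 0.765). Of 599 miRNAs 0 (0%) passed by edgeR and 0 by DESeq2, with 59 at an unadjusted p under 0.05 in edgeR. The ratio of miR-192-5p to miR-194-5p was higher in AM132 by 0.26 on the log2 scale (exact permutation p = 0.0545, adjusted 0.0970), and 4 of 8 AM132 libraries were above all RCD libraries. Without AM132 5 and AM132 6 it was higher by 0.23 (exact permutation, adjusted p = 0.136).

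**Figure D3:**
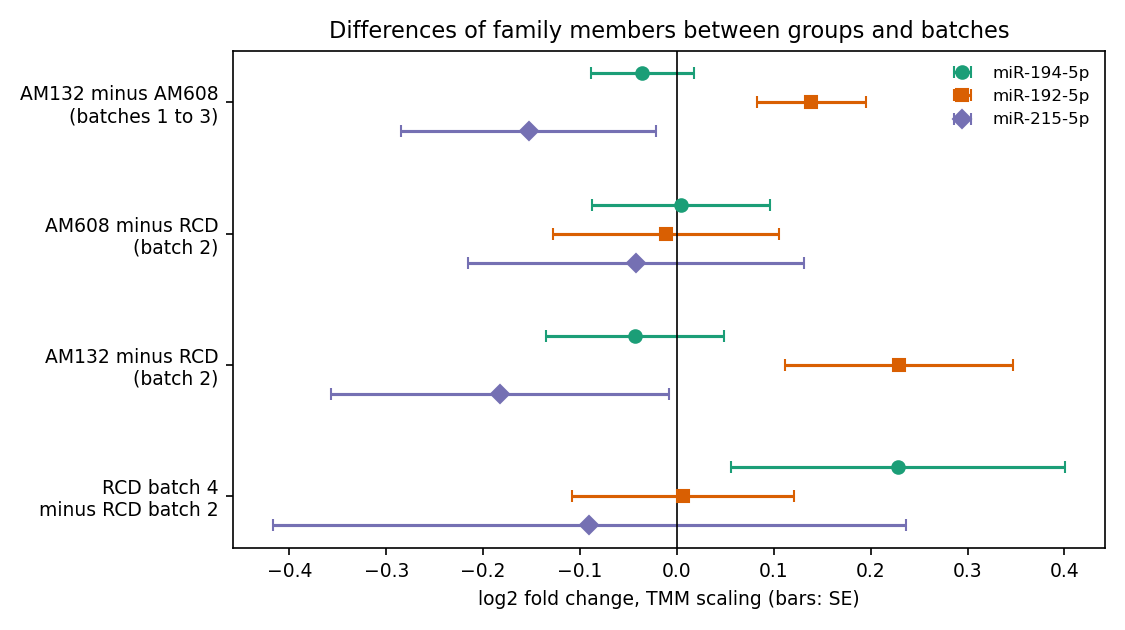
Log2 fold changes (horizontal axis, TMM scaling) of miR-194-5p, miR-192-5p and miR-215-5p in 4 comparisons, with SE as bars. miR-192-5p is positive in both comparisons of AM132, at 0.14 against AM608 and 0.23 against RCD, and no value shown passed its adjusted test.

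Levels were then compared between batches. Over AM132 and AM608 libraries the batch changed 404 of 559 miRNAs (72.3%). miR-192-5p (edgeR adjusted p = 0.0151) and miR-215-5p (adjusted p = 0.00716) were among them and miR-194-5p (adjusted p = 0.306) was not. miR-192-5p was higher in batch 2 by 0.17 ± 0.07 against batch 1 (edgeR adjusted p = 0.0292, where 67.6% of miRNAs passed and 34.2% were higher) and by 0.19 ± 0.07 against batch 3 (adjusted p = 0.0141, where 68.7% passed and 34.9% were higher). miR-215-5p was higher in batch 2 by 0.58 ± 0.17 against batch 1 (edgeR adjusted p = 0.00376), and against batch 3 its difference was 0.34 ± 0.16 (edgeR adjusted p = 0.0736). Between batch 3 and batch 1 no member passed, with 2 of 559 miRNAs (0.358%) called, both higher in batch 3.

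The size of the batch difference rested on the scaling. By library totals, the median level in batch 2 was 359 CPM for miR-194-5p and 239 CPM for miR-192-5p, against 268 and 171 CPM in batch 1 and 250 and 164 CPM in batch 3. Scaled by TMM the medians in batch 2 were 304 and 208 CPM, against 292 and 193.9 CPM in batch 1 and 274 and 186 CPM in batch 3. TMM factors ran from 0.964 to 1.24 in batch 2 and from 0.825 to 0.964 in the others. With library totals only, miR-194-5p was higher in batch 2 than in batch 1 by 0.42 ± 0.07 (edgeR adjusted p = 3.1e-06). The 3 pancreas acinar markers (miR-216a-5p, miR-216b-5p and miR-217-5p) summed to 216 to 467 CPM in batch 2 and to 1.65 to 13.7 CPM in the other batches. The 7 pituitary and other endocrine markers summed to 22326 to 62327 CPM in batch 2 and to 4352 to 9981 CPM elsewhere. Most of that sum was miR-7b-5p, at 21449 to 41586 CPM in batch 2 and 4226 to 9757 CPM elsewhere. Between RCD batches 4 of the 7 passed, all lower in batch 4, and 2 of the 7 had a positive log2 fold change. Choroid plexus and ciliated cell markers had 3633 to 5708 CPM in batch 2 and 1398 to 7841 CPM elsewhere, and miR-122, the hepatocyte marker, 40.4 to 73.5 CPM in batch 2 and 12.5 to 41.6 CPM elsewhere. The 8 brain markers were lower in batch 2 as a sum, at 183273 to 280338 CPM against 284303 to 346075 CPM. They did not all move that way: between RCD batches 5 passed as higher and 3 as lower in batch 4. The RCD median of miR-128-3p was 49199 CPM in batch 2 and 143085 CPM in batch 4. That of miR-7a-5p was 113560 CPM in batch 2 and 25861.5 CPM in batch 4. The part of these markers in the members' batch difference was not tested.

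**Figure D4:**
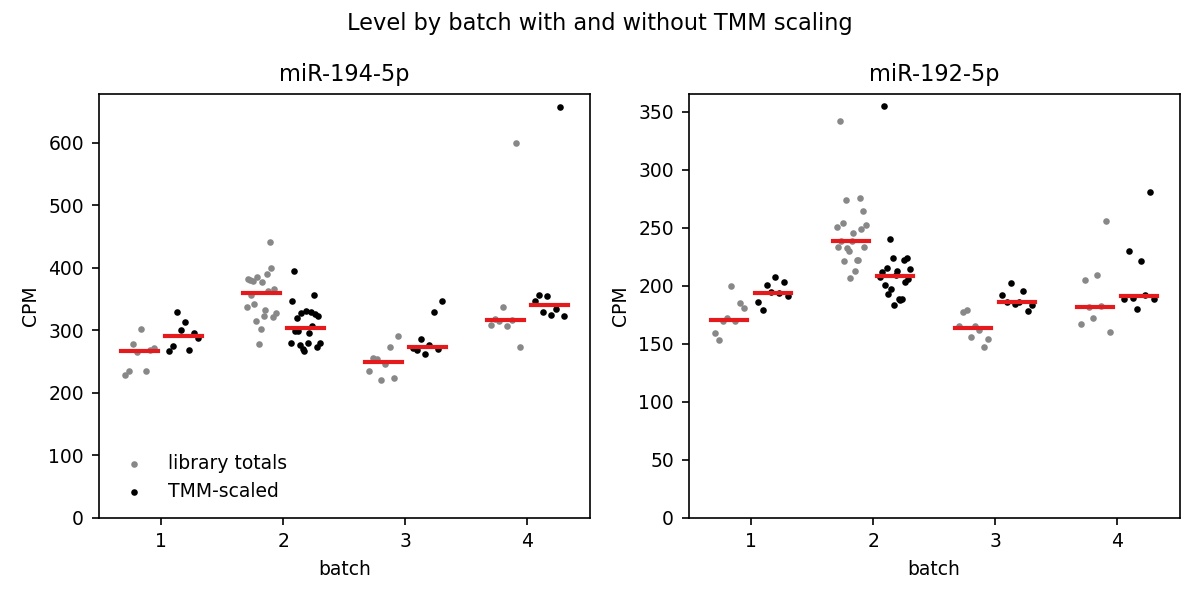
CPM of miR-194-5p and miR-192-5p in each library by batch, with library totals (grey) and after TMM scaling (black); red lines are medians. The rise in batch 2 is largest with library totals, at a median of 359 against 268 CPM in batch 1 for miR-194-5p, and small after scaling, at 304 against 292 CPM.

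RCD libraries of batch 4 and batch 2 show the batch within 1 group of mice. None of the 3 tested members differed, where 331 of 598 miRNAs (55.4%) passed, 26.9% higher and 28.4% lower in batch 4. miR-194-5p had 308.1, 317.9, 315.2, 338.2, 306.7, 316.6, 599.1 and 273.6 CPM in batch 4, against 377.3, 390.1, 400.2 and 328.5 CPM in batch 2. The library RCD 7 stood alone at 599.1 CPM. By library totals its median was thus lower in batch 4, at 316 CPM against 384 CPM in batch 2. Under TMM scaling the log2 fold change, batch 4 minus batch 2, was 0.23 ± 0.17 (edgeR adjusted p = 0.281), and 0.06 without RCD 7. Over 5 other settings this fold change ran from -0.11 to 0.27, with 1 change of sign, so that its direction rested on the processing. miR-192-5p had 0.01 ± 0.11 (edgeR adjusted p = 0.973) and miR-215-5p -0.09 ± 0.33 (edgeR adjusted p = 0.839). With library totals only, the median of all miRNAs moved to -0.35, and miR-192-5p was at -0.33 ± 0.11 (adjusted p = 0.0223), close to that shift.

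RCD 7 carried the family's highest value. It had 3307 counts of miR-194-5p, against 990 to 1824 in the other batch 4 libraries, and 256 CPM of miR-192-5p, against 160 to 210 CPM. Its miR-215-5p, at 2.90 CPM, lay inside the others' range of 1.30 to 6.72 CPM, and its ratio of miR-192-5p to miR-194-5p, 0.427, was the lowest of the 44 libraries. The 409 miRNAs were ranked by log2 level minus the median of the other batch 4 libraries, from most above to most below. In that order miR-194-5p was at rank 5 (0.98) and miR-192-5p at rank 29 (0.56). At the low end miR-505-5p was at -0.98. Ahead of miR-194-5p were miR-195a-5p (525.9 CPM, against 117 to 194.3 CPM), miR-497a-5p (119 CPM, against 35.9 to 69.1 CPM), miR-129-1-3p and miR-350-3p. miR-195a and miR-497a come from 1 shared cluster. In RCD 7, 148 of the 409 miRNAs lay outside the range of the others, where the 8 libraries of that batch had 61 to 148. The hepatocyte marker miR-122, both arms summed, was 21.2 CPM in RCD 7, near the lowest of the others, whose highest value was 41.6 CPM. Its 4 blood markers summed to 951 CPM, above the 539 to 815 CPM of the others, and its 3 muscle markers to 317 CPM, against 135 to 318 CPM. Its 14 miRNAs linked to hepatocyte nuclear factors or endodermal tissue summed to 7229 CPM, below the 7593 to 9974 CPM of the others. Its 7 pituitary and other endocrine markers, at 5080 CPM, were also below the others, at 5526 to 8643 CPM. The part of these markers in its miR-194-5p was not tested.

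Over the 44 libraries miR-192-5p and miR-194-5p varied together within groups. After each library's log2 CPM was centred on its group in its batch, Pearson's r was 0.66 (permutation p = 0.0014, adjusted over 3 pairs 0.0042) and Spearman's rho 0.42 (permutation p = 0.00855). Within batches 1 to 4 r was 0.66, 0.64, 0.25 and 0.82. Without AM132 6 and RCD 7 r was 0.30, and without RCD 7, AM132 5, AM132 6 and AM608 5 it was 0.16 (permutation p = 0.304). Leaving out these 4 took r to 0.07 in batch 2 and 0.07 in batch 4. The relation over all libraries under TMM scaling thus rests largely on them, while the r of batch 1, which holds none of them, does not. With library totals only, r without the same 4 libraries was 0.47, where both members share the library total. miR-215-5p had r of 0.19 with miR-192-5p and 0.07 with miR-194-5p.

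**Figure D5:**
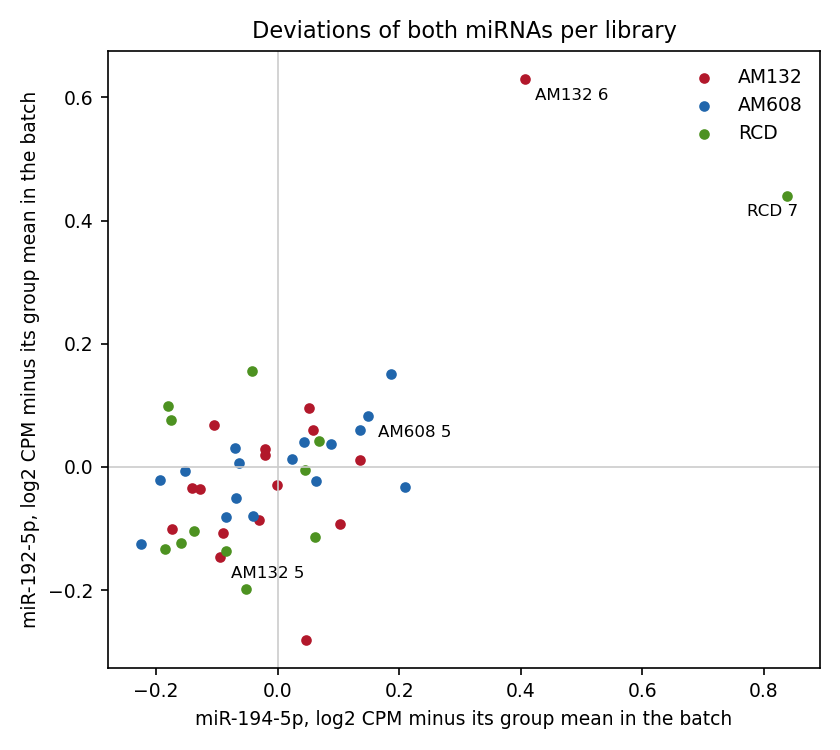
Log2 CPM of miR-192-5p (vertical axis) against miR-194-5p (horizontal axis), each centred on its group in the batch, for 44 libraries coloured by group. RCD 7 and AM132 6 lie far up on both axes, and r is 0.66 with them and 0.30 without.

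Since the title pairs miR-194-5p with lysine tRNA fragments, the share of lysine fragments among all tRNA fragment counts was set against the members. Lysine fragments made up 45.7% of those counts over all libraries and 19.8 to 63.7% of single libraries. The r with miR-194-5p over 44 libraries, centred as before, was -0.28 (permutation p = 0.171, adjusted over 3 members 0.513) and rho was 0.08 (permutation p = 0.626). Without RCD 7 and AM132 5, the libraries farthest in that share, r was 0.12. With all libraries kept, r within batches 1 to 4 was 0.48, 0.35, -0.23 and -0.87, the last with RCD 7 among its 8 libraries. miR-192-5p had r of -0.16 and miR-215-5p 0.13, and no relation passed. With miR-132-3p, over 32 AM132 and AM608 libraries, miR-192-5p had r of -0.80 (permutation p = 0.0413, adjusted 0.123), but rho was -0.14 and r was -0.12 without AM132 6 and AM132 11.

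The miRNAs whose levels were most like those of each member were sought among 407 miRNAs with a mean of at least 10 CPM, by Pearson's r of batch-centred log2 CPM over 44 libraries, as a description. For miR-194-5p they were miR-195a-5p (0.82), miR-30b-5p (0.68) and miR-497a-5p (0.68). For miR-192-5p they were miR-378a-3p (0.76), miR-30a-5p (0.75) and miR-378c (0.70), and for miR-215-5p miR-30b-3p (0.33), miR-122-5p (0.33) and miR-142a-3p (0.32). Without RCD 7 miR-195a-5p fell to rank 10 and miR-497a-5p to rank 30 for miR-194-5p. Without AM132 5, AM132 6 and AM608 5, miR-30a-5p was first for miR-192-5p, and miR-378a-3p and miR-378c were at ranks 11 and 36. These libraries share depth and scaling, and the order rests in part on them.

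A pair of miRNA lists with a background tied to the family was examined. Of 14 miRNAs linked to hepatocyte nuclear factors or endodermal tissue, 12 were tested between AM132 and AM608 and none passed, with a median log2 fold change of 0.20 against 0.00 over all miRNAs. The lowest p were those of miR-148a-3p (0.56 ± 0.29) and miR-375-3p (-1.47 ± 0.78), each with an edgeR adjusted p of 0.925. Both had an extreme value in batch 2. The highest AM132 library there had 135974 CPM of miR-148a-3p, against a group median of 15809 CPM. The highest AM608 library there had 15541 CPM of miR-375-3p, against a group median of 94.9 CPM. Without AM132 5, AM132 6 and AM608 5 the list's median was 0.03. Of 12 miRNAs described as responsive to p53, 1 of 12 tested was higher in AM132, where 0.179% of all tested miRNAs were: miR-34c-3p (0.91 ± 0.16, edgeR adjusted p = 0.00169), also typical of ciliated cells. The next was miR-34c-5p (0.27 ± 0.10, adjusted p = 0.680). None of either list passed between AM608 and RCD, with medians of 0.35 and -0.07, or between AM132 and RCD, with medians of 1.30 and -0.03. Without those 3 libraries the endodermal medians of 0.35 and 1.30 were 0.01 and 0.08. Between RCD batches 9 of 13 of the endodermal list (8 lower and 1 higher in batch 4) and 9 of 12 of the p53 list (5 lower and 4 higher) passed, where 55.4% of all tested miRNAs did (28.4% lower and 26.9% higher).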

How the data were processed

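Small RNA of mouse hypothalamus was extracted with the miRNeasy kit and made into libraries from 200 ng of RNA with the NEBNext small RNA kit, per the labels' protocols. The authors deposited raw counts per mature miRNA and per tRNA fragment for 44 libraries, and each value is an unnormalised count. The submitters' processing notes name FastQC; which aligner, which miRNA release and which build were used is not given in the sources used here. All columns were matched to labelled samples, and 0 columns belonged to others. The members and the lists were chosen with earlier results of these data known.

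The tests used edgeR 4.0.16 (R 4.3.3): filterByExpr (minimum count 10, minimum total 15), TMM scaling, quasi-likelihood tests and Benjamini-Hochberg adjustment at 0.05 over all tested miRNAs. AM132 and AM608 were compared over 32 libraries with batch as a term, RCD contrasts within the 20 libraries of batch 2, and RCD batches over 12 libraries. DESeq2 1.42.0 was an alternative. An SE was taken as the size of the log2 fold change over the root of its F statistic. Log2 CPM for correlations used TMM and a prior count of 2. Ratios were compared by 2-sided permutation (100000 resamples within batch, exact within 1 batch; numpy 2.4.6). The code was tested on simulated data. The miRNAs named are the 7 members, the 3 closest to each tested member, and, of each list in AM132 against AM608, those past the test and the 2 of smallest p. Also named, after their values were seen, are the targeted miR-132-3p, single marker miRNAs and those ahead of miR-194-5p in RCD 7. The closest pair of libraries of a group differed by a chi-square of 5.02 per degree of freedom, so none was taken as deposited more than once. Sequences and positions are RefSeq's, on GRCm38.p6, and neighbouring genes GENCODE's on that build. The labels do not say that shared replicate numbers pair libraries, and the main tests did not treat them as pairs. Of 16 pairs of AM132 and AM608 by number, 11 correlated above 0.1, with a median r of 0.20. Whether this is beyond chance was not tested.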

Additional observations from a re-analysis of the deposited data

Results flagged for a closer look

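Within a group of 1 batch, 8 values lay far from the rest by Dixon's test, of 48 sets of libraries and measures examined; chance flags about 1 in 20 groups. miR-194-5p was 599 CPM in RCD 7, against 274 to 338 CPM in the other RCD libraries of batch 4. miR-192-5p was 342 CPM in AM132 6, against 222 to 274 CPM in the other AM132 libraries of batch 2, and 275 CPM in AM608 11, where the rest of AM608 in that batch had 207 to 239 CPM. miR-215-5p was 3.56 CPM in AM608 16, where the rest of AM608 in batch 3 had 2.03 to 2.26 CPM. The ratio of miR-215-5p to miR-192-5p was 0.00562 in AM608 1, where the rest of AM608 in batch 1 had 0.0147 to 0.0162, and 0.0127 in AM608 5, where the rest of AM608 in batch 2 had 0.0186 to 0.0213. The ratio of miR-215-5p to miR-194-5p was 0.00366 in AM608 1, against 0.0104 to 0.0108, and 0.00773 in AM608 5, against 0.0116 to 0.0143. AM608 1 held 3 counts of miR-215-5p and AM608 5 held 11.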

How the results depend on the processing

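No member was called between AM132 and AM608, AM608 and RCD, or AM132 and RCD under any alternative run, among them RLE scaling, DESeq2, no low-count filter and a filter at 10 CPM. With library totals only, a setting added after seeing the data, 1 member was called between RCD batches: miR-192-5p, at -0.33 in place of 0.01; that scaling also brought miR-194-5p past the threshold for batch in AM132 and AM608 (F = 32.8). Leaving out single libraries moved the log2 difference of the ratio of miR-192-5p to miR-194-5p between 0.15 and 0.18 (adjusted p 0.00177 to 0.0141) and that of miR-215-5p to miR-192-5p between -0.35 and -0.21 (adjusted p 0.0210 to 0.252), past the threshold without AM608 1 or AM132 16; causes were not tested. Within batch 2 alone, leaving out AM132 5, AM132 6 and AM608 5, also added after seeing the data, took the ratio of miR-192-5p to miR-194-5p to 0.23 (adjusted p = 0.0524), short of the threshold. The labels do not say that replicate numbers shared by AM132 and AM608 pair libraries. Of 16 AM132 libraries 7 correlated best with their own number, and whether this is beyond chance was not tested. With the replicate block 0 members were called, and miR-192-5p was at 0.13 (edgeR adjusted p = 0.724). The ratio of miR-192-5p to miR-194-5p stayed at 0.16 with that block (sign-flip permutation, adjusted p = 0.0124). Depth limits miR-215-5p (3 to 35 counts) and the 3p arms.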

Other observations

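Without RCD 7 the miRNAs closest to miR-194-5p over 43 libraries were miR-22-3p (r = 0.69), miR-32-5p (0.68) and miR-425-5p (0.63), given as a description. miR-194-2-3p was highest by CPM in AM132 11 (2.71 CPM), with 2.54 CPM in RCD 7, and RCD 1 was the only library with none.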
